A study of Mus musculus with 7 samples.

Results

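The microRNA miR-124 was followed through its 2 mature products, mmu-miR-124, the arm that is loaded into the silencing complex, and mmu-miR-124*, the opposite arm of the same hairpin. Both were chosen by name and are 2 of the 756 distinct mature miRNA sequences measured in the series. In all, 7 small RNA libraries from adult mouse hippocampus were read: 1 of non-trained control mice, 1 of non-trained NIPP1* mice, 3 labelled trained control and 2 labelled trained NIPP1*. All mice were C57BL/6 animals of 3 to 5 months. NIPP1* mice carry an inducible fragment of NIPP1, a nuclear inhibitor of protein phosphatase 1 (PP1), driven in forebrain neurons through the CaMKIIalpha promoter, so the other cells of the hippocampus are not direct targets of the transgene. Doxycycline in the diet switched the transgene on. Controls were littermates labelled wildtype, and whether they ate the same diet is not given in the sources used here. Trained mice had explored unfamiliar objects in the object recognition task (NOR) and were then tested, and non-trained mice went through the procedure without objects. The hippocampi were pooled, and the sources used here do not say how animals were divided among libraries of a group, so p-values measure the spread between libraries, which may be technical.

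MiR-124 is among the best known neuronal miRNAs. It is made from several hairpin genes of identical mature product, accumulates as precursors leave the cell cycle and become neurons, and represses transcripts typical of non-neuronal cells, among them that of the splicing repressor PTBP1. In adult neurons it has also been tied to synaptic plasticity through the transcription factor CREB. As in other miRNAs, a hairpin is cut first in the nucleus and then in the cytoplasm, after which one arm is usually kept and the other, marked here by an asterisk, is mostly degraded.

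Levels are given as RPM, read counts scaled to a total of 1000000 miRNA reads per library. A library held between 7285184 and 10017987 miRNA reads, so 1 read was worth between 0.0998 and 0.137 RPM, and every value of both arms rested on at least 2453 reads. The deposited comparison tables disagree with the labels on the trained libraries. Their mean for the trained control group was 37260 normalised reads of miR-124, whereas the 3 libraries labelled trained control gave 30857 and the 2 labelled trained NIPP1* gave 37245 when the same normalisation was rebuilt. For miR-124* the tables' trained control mean was 2997, against 3304 in the libraries labelled control and 2996 in those labelled NIPP1*. Groups below follow the labels, and every difference between the trained genotypes changes sign under the grouping of the tables, while training effects within a genotype are taken over other libraries. The pooled comparison of trained with non-trained libraries does not depend on this assignment.

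The mature arm was listed at 3 places in the genome (build mm9), all on the plus strand. In the hairpin Mir124a-1 on chromosome 14 (65209494 to 65209578) it spans 65209546 to 65209565, and the star arm spans 65209507 to 65209528. This hairpin lies inside an exon of the long non-coding RNA gene A930011O12Rik (65206952 to 65212796), which RefSeq calls Mir124a-1hg. On chromosome 3 the hairpin (17695662 to 17695770), Mir124a-2 in RefSeq, holds the mature arm at 17695723 to 17695742 and the star arm at 17695686 to 17695707. On chromosome 2 the hairpin Mir124a-3 (180628736 to 180628822) holds the mature arm at 180628788 to 180628807 and the star arm at 180628750 to 180628771. Neither of these 2 hairpins lies in an annotated host gene of the GENCODE release for mm9.

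At the 3 loci the mature arm carried the same value in each library to the last deposited digit, which stands for 7 to 10 reads, so these values cannot say which hairpin the molecules came from. The star arm was less uniform. It had the same value at Mir124a-1 and Mir124a-2 and a slightly lower value at Mir124a-3 in 7 of 7 libraries, by 7 to 20 reads or 0.193% to 0.504% of its level. Levels below are means over the 3 loci, each of which carries all, or at Mir124a-3 nearly all, reads of the product.

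MiR-124 stood at 4085 RPM in the non-trained control library and at 4054 RPM in the non-trained NIPP1* library. The 3 trained control libraries held 3671, 3733 and 3637 RPM. The 2 trained NIPP1* libraries held 4091 and 5135 RPM. The single high value was library 7, the second of the trained NIPP1* libraries, and the other 6 lay between 3637 and 4091 RPM. Over all 7 libraries the mean was 4058 ± 515 RPM (SD), and its share of miRNA reads lay between 0.364% and 0.513%. Counting alone would give an error of 0.441% to 0.593% per library, well under the 12.7% coefficient of variation between libraries.

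MiR-124* was the scarcer arm in every library. It was measured at 452 RPM in the non-trained control library and at 466 RPM in the non-trained NIPP1* library. The trained control libraries gave 441, 359 and 383 RPM. The trained NIPP1* libraries gave 337 and 405 RPM. Each of the 5 trained libraries was below both non-trained ones, and the 2 trained groups overlapped. The mean over the 7 libraries was 406 ± 49.3 RPM (SD), with a coefficient of variation of 12.1%.

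**Figure D1:**
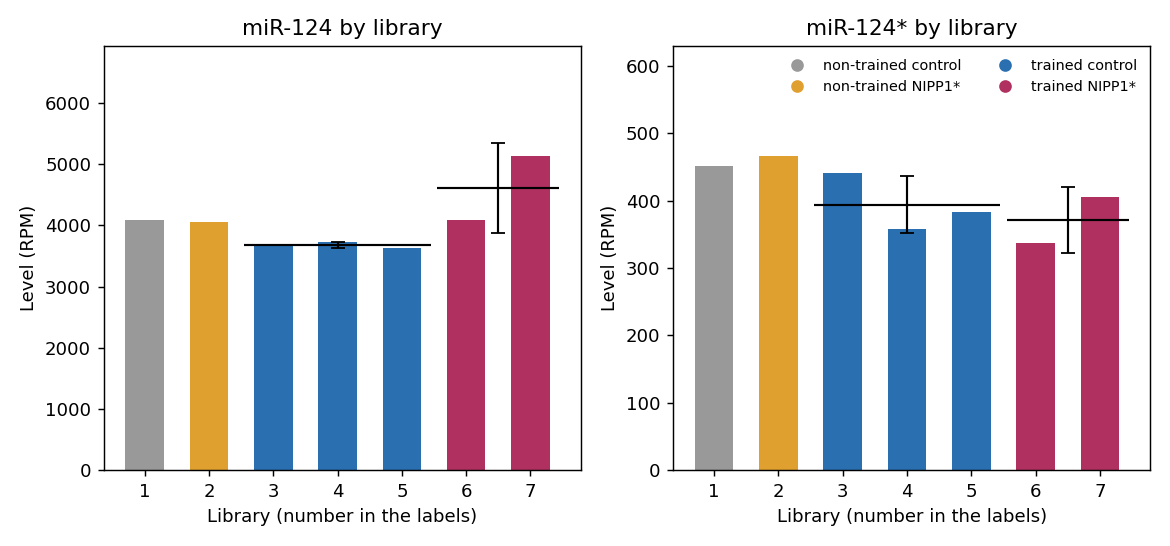
Level of miR-124 (left) and miR-124* (right) in each library, in RPM, coloured by labelled group; horizontal lines are group means and error bars 1 SD for the groups with 3 and 2 libraries. MiR-124 is highest in library 7 at 5135 RPM, and miR-124* is lower in all 5 trained libraries than in both non-trained ones.

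In the order of mean levels miR-124 ranked 37 of 756, between rank 32 and rank 40 in single libraries. Directly above it came miR-24, with a mean of 4186 RPM, and directly below it miR-338-3p, an oligodendrocyte miRNA, with 3726 RPM. The ranges of these 3 overlapped. MiR-124 was above miR-24 in 2 libraries and above miR-338-3p in 5. MiR-124* ranked 109, with miR-194 directly above at 411 RPM and miR-301a directly below at 404 RPM, both again with overlapping ranges. These ranks are on the RPM scale, on which unequal ligation of different miRNAs can enter, and its part was not tested. Of 319 miRNAs averaging 100 or more reads, 130 had a smaller SD of log2 level over the libraries than miR-124 (0.17) and 143 a smaller one than miR-124* (0.18), against a median SD of 0.19.

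The first question was whether inhibiting PP1 alters miR-124 in mice that had not been trained. Both arms were at nearly the same level in these 2 libraries. The log2 ratio of non-trained NIPP1* to non-trained control was -0.01 for miR-124 (exact 95% interval -0.03 to 0.01), from 32727 and 36319 reads. For miR-124* it was 0.05 (-0.02 to 0.11), from 3764 and 4018 reads. The intervals cover counting error only, and with 1 library per group there is no test. Of the 476 miRNAs averaging 10 or more reads, 2.52% were past a log2 ratio of 1 in either direction between these libraries.

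The next comparison was training against no training. For miR-124, pooling the 5 trained and the 2 non-trained libraries gave a log2 difference of -0.02 ± 0.14 (SE, limma, adjusted p = 0.983), with a 95% interval of -0.34 to 0.30. The trained libraries lay on both sides of the non-trained ones, so the groups overlapped. For miR-124* the pooled difference was -0.26 ± 0.13 (limma, adjusted p = 0.816), with an interval of -0.55 to 0.03. On the RPM scale this was a level lower in trained libraries by a factor of 0.835, lower in 5 of 5 libraries. The means were 385 ± 40.7 RPM (SD, n = 5) and 459 ± 10.1 RPM (SD, n = 2). After TMM or DESeq2 scaling library 3 was no longer below both non-trained libraries. The pooled difference of miR-124* was then -0.20 with TMM, -0.18 with DESeq2 and -0.19 with edgeR. This difference did not pass the test after correction over 476 miRNAs. Of those 476, 8.19% had all 5 trained libraries below both non-trained ones. No miRNA passed in this comparison (0% of 476), while 26 had an unadjusted p under 0.05 and DESeq2 called 1.

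Split by labelled genotype, the estimates for miR-124 had opposite signs and those for miR-124* the same sign, and none of these differences passed the test. Each of these comparisons has a single non-trained library per genotype, which the model assumes to vary like the trained ones. In controls the log2 difference of trained from non-trained was -0.15 ± 0.16 for miR-124 (SE, limma, adjusted p = 0.740) and -0.20 ± 0.20 for miR-124* (adjusted p = 0.732). With TMM scaling these values were -0.06 and -0.11, and under the grouping of the tables they were 0.17 and -0.29. All 3 trained control libraries were below the non-trained control for miR-124, which was also so for 37.4% of all miRNAs tested. In NIPP1* mice the difference was 0.18 ± 0.17 for miR-124 and -0.34 ± 0.21 for miR-124* (limma, adjusted p = 0.973 for both). Without library 7 they were 0.01 and -0.47, and without library 6 0.34 and -0.20, so the positive sign for miR-124 rested largely on library 7. Under the grouping of the tables they were -0.14 and -0.25, so that the estimates for miR-124 turned sign in both genotypes. Both trained NIPP1* libraries were above the non-trained one for miR-124 (4091 and 5135 against 4054 RPM), as were 30.7% of miRNAs tested. The difference between the 2 training effects was 0.33 ± 0.23 for miR-124 (limma, adjusted p = 0.799) and -0.13 ± 0.29 for miR-124* (adjusted p = 0.951). For miR-124 it was 0.16 without library 7 and 0.49 without library 6, and for miR-124* -0.27 and 0.00096. Across these 3 comparisons limma called 0% of miRNAs, with 28, 21 and 37 at an unadjusted p under 0.05, and DESeq2 called 1, 2 and 2.

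The remaining comparison asked whether trained mice of the 2 genotypes differ. MiR-124 averaged 4613 ± 738 RPM (SD, n = 2) in the libraries labelled trained NIPP1* and 3680 ± 48.7 RPM (SD, n = 3) in those labelled trained control. The groups did not overlap, and neither did those of 18.7% of the miRNAs tested in the same direction. The log2 difference was 0.32 ± 0.12 (SE), a fold of 1.25, with a 95% interval of 0.02 to 0.61 before any correction. Its unadjusted p of 0.0379 ranked 22 of 476, and it failed correction (limma, adjusted p = 0.639). With TMM scaling the difference was 0.24 (limma, unadjusted p = 0.0927). DESeq2 gave 0.27 (unadjusted p = 0.0724) and edgeR 0.25 (unadjusted p = 0.0759). On the RPM scale the size of the difference hung on library 7, without which it was 0.15 and without library 6 0.48. For miR-124* the difference was -0.09 ± 0.16 (limma, adjusted p = 0.896), with 394 ± 42.5 RPM (SD, n = 3) in trained controls and 371 ± 48.6 RPM (SD, n = 2) in trained NIPP1*. That value was 0.05 without library 6, -0.22 without library 7 and -0.00374 without library 3, and -0.16 with TMM scaling, so its direction was not settled. Over all miRNAs limma called 0% here, 34 had an unadjusted p under 0.05, and DESeq2 called 1. Leaving out 1 library moved these 34 to between 10 (without library 7) and 113 (without library 3). Under the grouping of the tables these log2 differences are -0.32 for miR-124 and 0.09 for miR-124*.

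**Figure D2:**
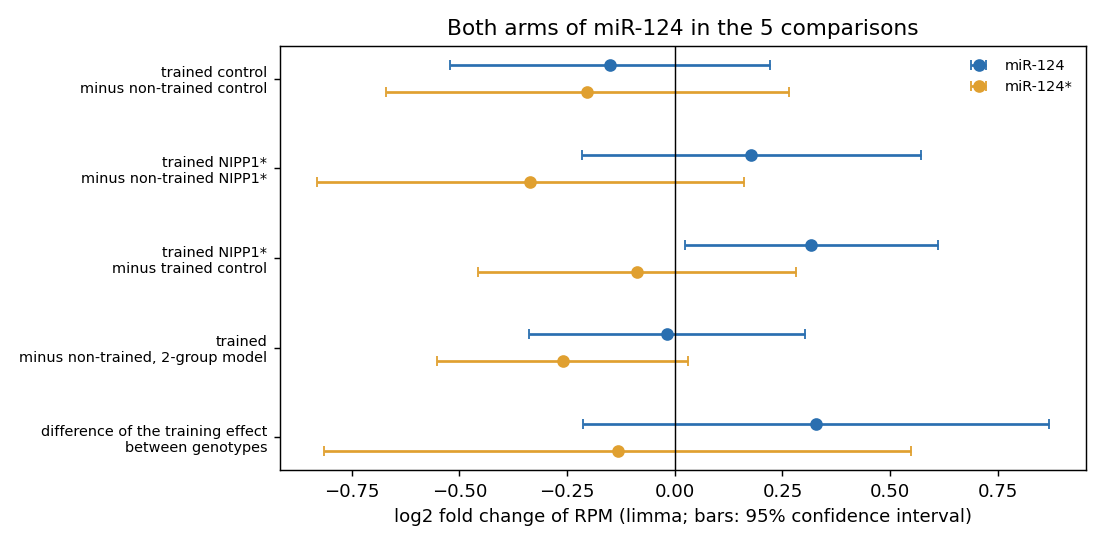
Log2 fold changes of miR-124 (blue) and miR-124* (orange) in the 5 tested comparisons, from limma on log2 RPM; points are estimates and bars 95% confidence intervals without correction for multiple tests. On log2 RPM the interval of miR-124 between the trained genotypes, 0.02 to 0.61, is the one that leaves out 0. No adjusted p passes. With TMM scaling that difference had an unadjusted p of 0.0927 (limma).

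Fewer cells of a type and less RNA per cell cannot be told apart in pooled tissue, so markers of neurons and other cells were read beside these values. Oligodendrocyte miRNAs stood higher in the same trained group as miR-124. All 3 of them (miR-219-5p, miR-219-3p and miR-338-3p) were higher in libraries 6 and 7 than in libraries 3 to 5, as were 18.7% of all miRNAs tested, and their summed level was 4631 to 5009 RPM in the former and 3222 to 3670 RPM in the latter. It was 5416 RPM in the non-trained control and 4356 RPM in the non-trained NIPP1* library. Within each trained group the library with the most miR-124 had the lowest such sum, library 7 with 4631 RPM and library 4 with 3222 RPM. Both measured red blood cell miRNAs (miR-451 and miR-144) were also higher in libraries 6 and 7 than in libraries 3 to 5. Their sums were 132 and 251 RPM in libraries 6 and 7, 61.9 to 126 RPM in libraries 3 to 5, and 116 and 85 RPM in the non-trained ones. MiR-451 was highest in library 7, at 229 RPM. None of the 4 vessel miRNAs and of the 5 choroid plexus miRNAs that passed the read minimum (miR-211 did not) separated the trained groups, and the sums of the whole lists ranged from 14791 to 18452 RPM and from 636 to 1457 RPM over the libraries. The 6 miRNAs of microglia and leukocytes had sums of 1158 to 1654 RPM, with 1 higher and 1 lower in libraries 6 and 7. The 5 neuron miRNAs listed (miR-124, miR-128, miR-137, miR-138 and miR-218) had sums of 83484.5 and 86615 RPM in libraries 6 and 7. Their sums were 86485.5, 84559 and 92645.5 RPM in libraries 3 to 5, and 82862 and 91611 RPM in the non-trained ones. Of these 5, 2 were higher and 1 lower in libraries 6 and 7, against 18.7% and 7.77% of all miRNAs tested. MiR-128, with a mean of 61486 RPM, made up most of these sums. No measured marker was at 0 throughout. The part of these cells in the level of miR-124 was not tested.

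The balance of the 2 arms was read in each library. In the non-trained control library miR-124 was read 9.04 times as often as miR-124*, and in the non-trained NIPP1* library 8.69 times. The trained control libraries gave ratios of 8.32, 10.4 and 9.50. The trained NIPP1* libraries gave 12.1 and 12.7, above the other 5, as was so for 6.76% of the 148 hairpins with 2 measured arms. As a share of the reads of both arms, miR-124* made up 7.32% to 7.60% in these 2 libraries and 8.76% to 10.7% in the rest. The Wilson 95% intervals, which cover counting error only, ran from 7.10% to 7.90% over the former and from 8.47% to 11.1% over the latter.

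**Figure D3:**
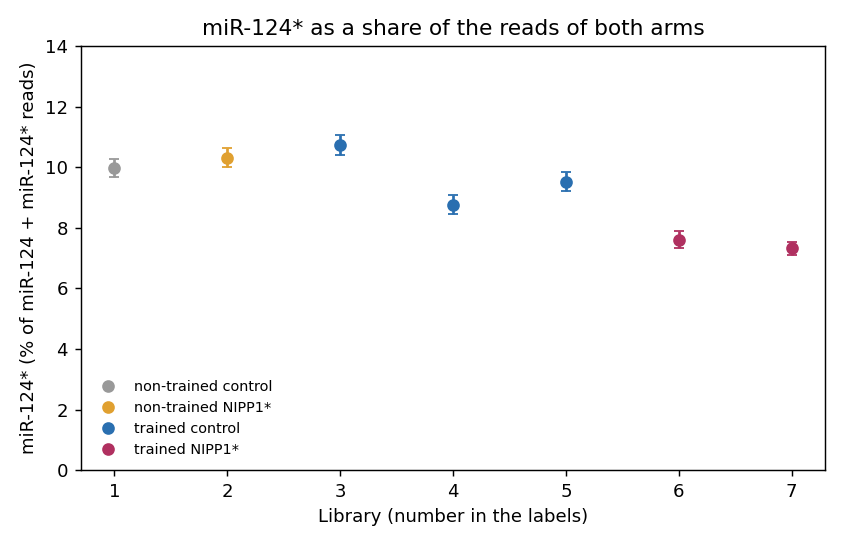
Reads of miR-124* as a percentage of the reads of both arms in each library, coloured by labelled group; bars are Wilson 95% intervals, which cover counting error only. Libraries 6 and 7 lie at 7.60% and 7.32%, below the 5 other libraries, which lie between 8.76% and 10.7%.

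On the log2 scale the ratio of the arms averaged 3.63 ± 0.04 (SD, n = 2) in the libraries labelled trained NIPP1* and 3.23 ± 0.16 (SD, n = 3) in those labelled trained control, a difference of 0.40. The exact permutation test, made two-sided by doubling the smaller tail, gave p = 0.20. That is the smallest p this doubled test can give for 2 against 3 libraries, so it cannot reach 0.05 here. For trained against non-trained libraries the means were 3.39 ± 0.25 (SD, n = 5) and 3.15 ± 0.04 (SD, n = 2), a difference of 0.24. The same doubled test gave p = 0.29 (exact permutation), and its smallest possible p was 0.095. Adjusted over these 2 comparisons, both p-values were 0.29. Fitted by limma across 148 hairpins with 2 measured arms, a test added after the data were seen, the difference between the trained genotypes was 0.40 ± 0.15 (unadjusted p = 0.0405, adjusted p = 0.615). For trained against non-trained libraries it was 0.24 ± 0.18 (limma, unadjusted p = 0.218, adjusted p = 0.769). No hairpin passed in either, and 11 and 9 had an unadjusted p under 0.05. Of the 148 hairpins, 12.8% had both trained NIPP1* libraries above all 3 trained control libraries. The mean log2 ratio of miR-124, 3.32, was below the median of 3.99 over these hairpins, and 83 of them were more strongly biased to 1 arm.

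The 2 arms did not follow each other from library to library. Pearson's r of their log2 levels was 0.08 over the 7 libraries, and miR-124* stood at place 175 of 318 among the miRNAs most like miR-124. The miRNAs most like miR-124 were miR-27b (r = 0.94), miR-30a (0.89), miR-379 (0.87), miR-140 (0.86) and miR-23b (0.86). Those most like miR-124* were miR-381 (r = 0.96), miR-497* (0.95), miR-210 (0.95), miR-107 (0.90) and miR-221 (0.90). These correlations over 7 libraries share library composition and depth and are given as a description. With Spearman's rho in place of Pearson's r, 2 of these 5 miRNAs stayed among the 5 most like each arm.

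All 5 companions of miR-124 were highest in library 7, as it was. MiR-27b, made from a cluster that also gives miR-23b, was lowest in library 3 at 966 RPM and highest in library 7 at 1261 RPM. MiR-379, of the large imprinted Dlk1-Dio3 miRNA cluster, was lowest in library 5 at 1903 RPM and highest in library 7 at 2613 RPM. The companions of miR-124* shared its high values in libraries 1 to 3 and its low value in library 6. MiR-381, of the same imprinted cluster, had 1007, 1086 and 1022 RPM in libraries 1 to 3 and 725 RPM in library 6. MiR-210, known as a hypoxia-responsive miRNA, had 25.2 to 29.4 RPM in libraries 1 to 3 and 13.4 RPM in library 6.

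**Figure D4:**
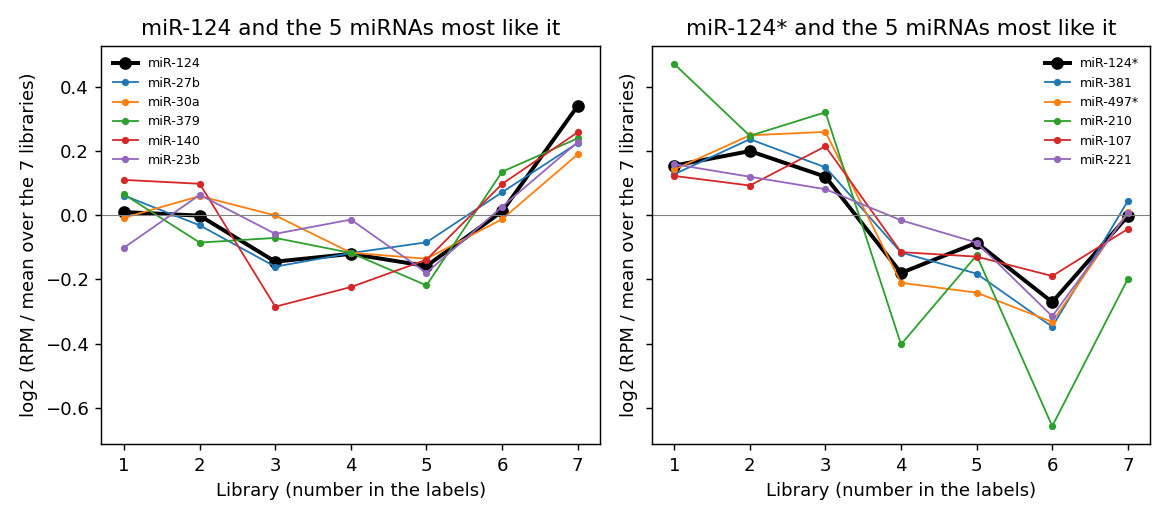
Level of miR-124 (left, black) and miR-124* (right, black) in each library with the 5 miRNAs whose log2 levels correlate best with each, as log2 of the RPM over its mean of the 7 libraries. The group of miR-124 peaks in library 7, and the group of miR-124* is high in libraries 1 to 3 and lowest in library 6.

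The mature sequences of the companions and of 6 other neuron-enriched miRNAs are printed because their values stand beside those of miR-124; RefSeq tables of build GRCm38.p6 gave 14 of 16, the capitals mark the seed (bases 2 to 8, the stretch that pairs with targets), and they are written 5′ to 3′.
Neuron-enriched miRNAs come first.
miR-9: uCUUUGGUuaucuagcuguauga
miR-128: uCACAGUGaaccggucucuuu
miR-138: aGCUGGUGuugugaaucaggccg
miR-218: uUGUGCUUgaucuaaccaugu
miR-137: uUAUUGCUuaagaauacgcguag
miR-132: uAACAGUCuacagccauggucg
The companions of miR-124 are the next 3.
miR-27b: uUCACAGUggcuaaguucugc
miR-30a: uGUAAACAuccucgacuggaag
miR-379: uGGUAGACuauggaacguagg
The companions of miR-124* complete the set.
miR-381: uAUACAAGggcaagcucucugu
miR-497*: cAAACCACacugugguguuag
miR-210: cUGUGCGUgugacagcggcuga
miR-107: aGCAGCAUuguacagggcuauca
miR-221: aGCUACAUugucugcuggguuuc

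The 14 sequences held 14 different seeds, so no 2 of them share a seed. The seeds of miR-27b and miR-128 overlap in 6 letters when read 1 base apart, bases 3 to 8 of miR-27b and bases 2 to 7 of miR-128.

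Among 22 neuron-enriched miRNAs, miR-124 was the 8th and miR-124* the 12th in mean level. MiR-9, which acts in neural progenitors as well as neurons, led the whole series with 128329 RPM, 31.6 times the RPM of miR-124. MiR-128, a miRNA that restrains neuronal excitability, had 61486 RPM, and miR-137 had 10799 RPM. MiR-138, an inhibitor of dendritic spine growth, had 6083 RPM. MiR-218 had 4468 RPM, with a range that overlapped that of miR-124. MiR-132, an activity-regulated miRNA under CREB, had 307 RPM, below miR-124*.

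**Figure D5:**
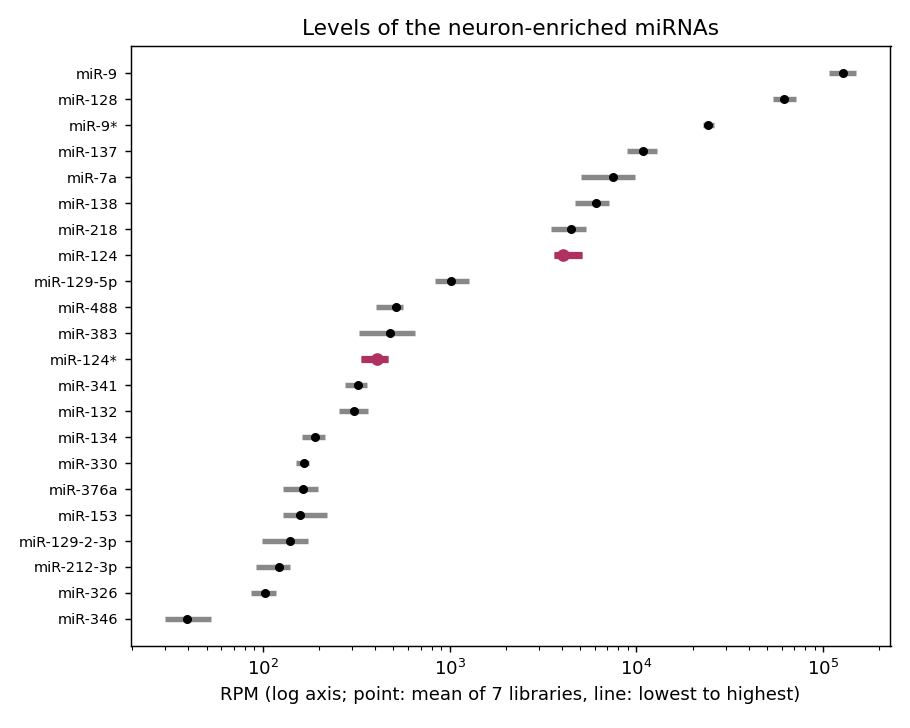
Mean level of the 22 neuron-enriched miRNAs over the 7 libraries in RPM on a log axis; lines run from the lowest to the highest library, and the 2 arms of miR-124 are in red. MiR-124 is 8th at 4058 RPM and miR-124* 12th at 406 RPM.

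None of the 22 passed in any of the 5 comparisons by limma or edgeR, while DESeq2 called 1, miR-129-2-3p, for training in controls and for pooled training. With limma 4 of the 22 had an unadjusted p under 0.05 for training in controls, against 5.88% of all miRNAs tested, and 1 for training in NIPP1* mice, against 4.41%. There were 2 between trained genotypes (7.14% of all), 2 for pooled training (5.46%) and 3 in the difference of the training effects (7.77%). Between the trained genotypes their median log2 difference was 0.09, against 0.04 over all 476 miRNAs tested. Between these libraries 5 of the 22 (miR-124, miR-138, miR-488, miR-376a and miR-153) were higher in both libraries labelled trained NIPP1* than in the 3 trained controls, and 1 (miR-128) was lower. Over all 476 miRNAs these shares were 18.7% higher and 7.77% lower. MiR-138 had 6056 and 7127 RPM in these 2 libraries against 5958, 5579 and 4689 RPM, with a log2 difference of 0.29 ± 0.14 (limma, adjusted p = 0.659). MiR-128 had 58385 and 57695 RPM against 60475, 62300 and 71940 RPM, a log2 difference of -0.16 ± 0.09 (limma, adjusted p = 0.662). Of the others whose levels are given above, miR-218 had a log2 difference of 0.26, miR-137 0.17, miR-9 0.10 and miR-132 -0.00386. Over the 22 the values ran from -0.28 (miR-129-5p) to 0.46 (miR-153).

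Between trained and non-trained libraries the 22 had a median log2 difference of 0.01, against -0.06 over all miRNAs tested. MiR-124* had the lowest value of the list and, with miR-488, was below both non-trained libraries in all 5 trained ones on the RPM scale. MiR-129-2-3p and miR-212-3p were above both in all 5. Over all 476 miRNAs, 8.19% were below and 3.36% above in this way. The largest difference was that of miR-129-2-3p, at 0.51.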

How the data were processed

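Small RNA of pooled hippocampi was sequenced in 7 libraries. The authors mapped reads to mm9 (the submitters' processing notes name Bowtie, bedtools and CASAVA 1.7.0) and deposited values per mature locus in percent of all miRNA reads, for inserts of 19 to 26 nt per the file names. They also deposited comparison tables whose size-factor-normalised means are signal values; their fold changes and p-values were not used. Here loci of identical sequence (806 loci, 756 sequences) were averaged, named through the tables, scaled to RPM, and turned back into reads from the step of 1 read (100% of values up to 100 reads came out whole, within 0.1 read). The 67 sequences not named stayed at or below a mean of 1.43 RPM.

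The main test was limma 3.58.1 (R 4.3.3) with a trend on log2(RPM + 0.5), over the 476 miRNAs averaging 10 or more reads, and Benjamini-Hochberg adjustment, in a model of the 4 groups or, for pooled training, of 2. Fold changes are on that scale. edgeR 4.0.16 and DESeq2 1.42.0 on the recovered reads were alternatives, as were TMM scaling, other filters and pseudocounts, leaving out libraries, and the tables' grouping. The arms were compared by exact permutation tests, made two-sided by doubling the smaller tail. The limma fits of the 5 comparisons were tested on simulated data. Members and lists were chosen with earlier results of these data known. Named besides the members were the 5 miRNAs (average of 100 or more reads) with the highest Pearson's r to each, the neighbours in level, and 6 of a neuron-enriched list. MiR-212, miR-129-3p and miR-448 were read as miR-212-3p, miR-129-2-3p and miR-448-3p, and miR-486 was not matched. MiR-140 and miR-23b had no sequence entry. The comparison of seeds with miR-124 was not run here.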

Additional observations from a re-analysis of the deposited data

Results flagged for a closer look

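The effect of training on miR-124 pointed in opposite ways in the labelled genotypes. All 3 trained control libraries (3637 to 3733 RPM) were below the non-trained control (4085 RPM), and both trained NIPP1* libraries (4091 and 5135 RPM) were above the non-trained NIPP1* library (4054 RPM). The difference of the 2 effects was 0.33 on the log2 scale (limma, adjusted p = 0.799), so it did not pass. It was 0.16 without library 7 and 0.49 without library 6, and -0.31 under the grouping of the deposited tables. Of the 476 miRNAs tested, 104 (21.8%) showed such opposite moves.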

How the results depend on the processing

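No log2 difference of miR-124 or miR-124* passed an adjusted p of 0.05 under any alternative that was run; the lowest adjusted p was 0.20, for miR-124 between the trained genotypes without trained control replicate 1. Under the tables' grouping of the trained libraries the directions reversed for miR-124 in controls (0.17), in NIPP1* mice (-0.14), between trained genotypes (-0.32) and in the difference of training effects (-0.31), for miR-124* between trained genotypes (0.0877) and in the difference of effects (0.0427), and for the arm ratio between trained genotypes (-0.40). The pooled training difference of miR-124 (-0.02) turned to 0.0456 with TMM, 0.0639 with DESeq2, 0.0548 with edgeR and 0.0132 as the mean of both training contrasts.

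Leaving out 1 library gave ranges of -0.107 to 0.0175 for the pooled difference of miR-124 (above 0 without each trained control library in turn), -0.221 to 0.0459 for miR-124* between trained genotypes and -0.266 to 0.00096 for miR-124* in the difference of effects, both above 0 without the first trained NIPP1* library. For miR-124 the range was 0.16 to 0.49 in the difference of effects and 0.01 to 0.34 for training in NIPP1* mice, the lower values without library 7. In controls, training gave -0.06 for miR-124 with TMM, DESeq2 and edgeR, and -0.10 to -0.11 for miR-124*; the difference of effects for miR-124* was -0.20 with TMM. The arm ratio ranged from 0.32 to 0.48 between trained genotypes and from 0.17 to 0.33 for training. Without 1 library the miRNAs at an unadjusted p under 0.05 numbered 14 to 108 in controls, 10 to 37 in NIPP1* mice, 10 to 113 between trained genotypes, 6 to 37 for pooled training and 21 to 85 in the difference of effects; each highest count was without the first trained control library. For miR-124* between trained genotypes TMM and edgeR gave -0.16 and DESeq2 -0.14. DESeq2 called 1 miRNA in controls, 2 in NIPP1* mice, 1 between trained genotypes, 1 for pooled training and 2 in the difference of effects, where limma and edgeR called 0. Spearman's rho kept 2 of the 5 companions of each arm, and a minimum of 10 reads kept 3 of those of miR-124*. Summing the 3 loci instead of averaging would give miR-124 12174 RPM. No paired analysis was possible because the labels number libraries through the series and pair none across groups. With 1 or 2 libraries in 3 of 4 groups, the spread rests on few libraries.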
